A study of Mus musculus with 425 samples.

Results

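The 31 genes described here encode the enzymes that build cholesterol and fatty acids, the regulators that switch both pathways on and a few proteins that carry or export sterols. They were taken by gene symbol from the 23845 genes of an epididymis mRNA table, and all 31 passed the filter on low values of each comparison below. The table held 30 libraries of polyA RNA from whole mouse tissue of the caput (head of the epididymis) and cauda (its tail), from a study of what loss of the miRNA pathway does to the fertility of males and to expression along their reproductive tract. Males carried a floxed allele of Dgcr8, which works with Drosha to cut primary miRNA transcripts, together with 1 of a pair of Cre transgenes. In the Stra8 line, Stra8-iCre is active in germ cells, and the groups were cKO (Dgcr8fl/fl; 3 caput and 4 cauda libraries) and control (Dgcr8+/fl; 3 caput and 4 cauda libraries). In the Defb41 line, Defb41-iCre is active in the epididymal epithelium, and the groups were cKO (Dgcr8fl/fl; 4 caput and 4 cauda libraries) and control (Dgcr8+/fl; 4 caput and 4 cauda libraries). The controls thus carried the Cre and 1 floxed allele too. Age, strain and number of animals per library were not given in the labels used here. No label states whether replicates are different animals, and p-values here reflect how far libraries of one group scatter, whether for technical or biological reasons.

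Cholesterol is built from acetyl-CoA through mevalonate, isoprenoid units, squalene and lanosterol, and a series of endoplasmic reticulum enzymes then turns lanosterol into cholesterol. When sterols in that membrane run low, the Insig proteins release the SREBP factors (genes Srebf1 and Srebf2), which go to the nucleus and bind sterol elements in the promoters of many of these genes; SREBP-1 favours the fatty acid genes and SREBP-2 the cholesterol genes. When sterols are plentiful, the LXR receptors raise the exporters Abca1 and Abcg1. In the epididymis, sperm lose cholesterol and change the fatty acids of their membrane on their way from caput to cauda, and the epithelium takes up, makes and exports lipids along the duct.

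The values were TPM (transcript abundance scaled to transcript length and to a common total per library, so that levels of different genes can be set side by side), as deposited. Each column summed to 999999 or 1000000, so the sequencing depth is unknown; genes above 0 numbered 11958 to 17079 per library, and the lowest number was that of Stra8 control caput replicate 2. In tissue libraries such as these, fewer cells of a type and less RNA per cell cannot be told apart. The Stra8 libraries fell by segment as labelled. The summed level of 11 caput genes was 72747 to 80076 TPM in cKO caput and 69550 to 84709 in control caput, against 320.5 to 379 in cKO cauda and 458 to 580.0 in control cauda. The Defb41 libraries did not match theirs. All 8 libraries labelled cKO carried the distal genes Cd52 (86443 to 111950 TPM) and Crisp1 (5776 to 11759), whether labelled caput or cauda, with Lcn8 at 3.74 TPM or less. All 8 libraries labelled control had Cd52 at 857 TPM or less. Those labelled control caput had Lcn8 at 25155 to 42336 TPM, and those labelled control cauda had Lcn8 at 22.2 to 572 beside Gpx5, another caput gene, at 7261 to 35731. Genotype and segment can therefore not be told apart in the Defb41 line, and its groups are named below by label only. Dgcr8 itself lay between 0.55 and 4.12 TPM in the 30 libraries, and its reads may come from parts of the gene outside the deleted one, so it checks no label. Of adipocyte genes, which the fat pad beside the duct could bring in, Adipoq was at most 10.1 TPM (in a Stra8 control cauda library). In the Defb41 line it was at most 1.33. The summed level of 10 adipocyte genes was 32.0 to 213 TPM in Stra8 control cauda and 19.2 to 93.0 in Stra8 control caput. It was 24.9 to 52.4 in Stra8 cKO cauda, 29.0 to 53.6 in Stra8 cKO caput and at most 50.2 in the Defb41 line. The part of adipocyte RNA in the results below was not tested. In the Stra8 cKO libraries 5 of 6 late spermatid genes were higher than in controls in the effect averaged over segments, with a summed level of 2672 to 4174 TPM in cKO caput against 567 to 795 in control caput, and 2470 to 8428 in cKO cauda against 538 to 2703 in control cauda; their part in the results below was not tested.

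Across the 30 libraries the most abundant member was Fdps, farnesyl diphosphate synthase, at 444 TPM on average, with a range of 205 to 631. Scd2 (a fatty acid desaturase, 209.9 TPM), Acat2 (which joins acetyl-CoA units, 176), Acly (which makes cytosolic acetyl-CoA from citrate, 168) and Srebf1 (139) followed. Tm7sf2, a sterol reductase, averaged 129 TPM, Nsdhl 122, Srebf2 and the squalene synthase Fdft1 102 each, and Fasn, fatty acid synthase, 78.0. At the low end stood Hsd17b7 (3.04 TPM), Ggps1 (2.37), Abca1 (2.06) and Stard4 (1.91). Neighbours in this order mostly overlapped between libraries: Scd2 spanned 71.1 to 295 TPM and Acat2 70.7 to 264. Fdps at its lowest, 205 TPM, was above the highest value of Tm7sf2, 178 TPM. Of the 31 genes, 13 overlap another RefSeq gene, such as Tm7sf2 with Vps51, Fdft1 with Ctsb, Srebf1 with Rai1 and Acaca with Tada2a, and whether the counting used strand is not given in the sources used here, so reads of such partners could not be told apart. Reads of Acat2, Scd1 and Scd2 can be shared with closely related genes, and how the estimate divided them decides their values.

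In Stra8 controls, 20 of 31 members differed between caput and cauda at an adjusted p under 0.05 (limma on log2(TPM + 1), Benjamini-Hochberg over all 12993 genes tested). Of the 20, 11 were higher and 9 lower in caput. Of all genes 45.5% passed this threshold, 20.5% higher and 25% lower in caput, and members lay on both sides: the median log2 difference was -0.03 over the members and -0.12 over all genes. In Stra8 cKO libraries 17 members passed, 10 higher and 7 lower in caput, where 41.1% of all genes passed (30.6% higher, 10.5% lower). There the median difference was 0.23 over the members and 0.32 over all genes, and scaling each library by the median ratio to a common profile brought the median of all genes to -0.02 and the split of members to 6 higher and 11 lower (37.8% of all genes passed). The split of 11 and 9 in controls was unchanged by that scaling. The segment difference itself differed between the genotypes at the threshold for 0 members. Leaving out each library in turn gave 15 to 19 members in control libraries and 13 to 19 in cKO libraries. In control libraries Scd1 was lost without caput replicate 1, Acaca without caput replicate 3, Srebf1 without caput replicate 2 or 3, Acly without caput replicate 1 or cauda replicate 2, and Fasn, Mvk, Nsdhl and Sc5d each without any of several libraries. In cKO libraries Tm7sf2, Fdft1 and Nsdhl were lost without caput replicates 1, 2 and 3 in that order, and Abca1, Acat2 and Cyp51 each without any of several.

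**Figure D1:**
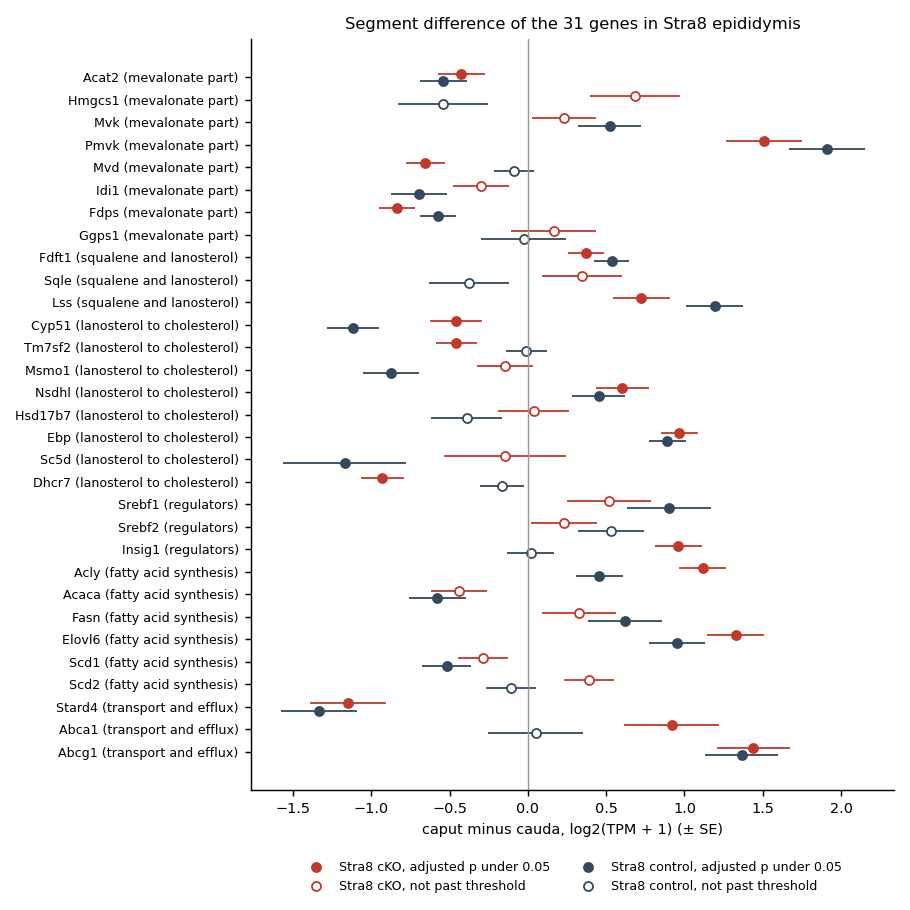
Caput minus cauda difference of each of the 31 genes in Stra8 epididymis, as a difference of mean log2(TPM + 1) with its SE on the horizontal axis, genes ordered by their place in the pathway on the vertical axis; red points are cKO and dark points control libraries (3 caput and 4 cauda each), filled where the adjusted p was under 0.05. Pmvk and Abcg1 lie farthest to the right and Stard4 farthest to the left in both genotypes.

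In the mevalonate part of the pathway, members lay on both sides. Pmvk, phosphomevalonate kinase (chr3:89454541-89469014, GRCm38.p6), had the largest difference of the 31 in both genotypes. In cKO libraries it had 58.1, 103 and 83.3 TPM in caput, against 25.6, 21.96, 30.9 and 31.6 in cauda. In control libraries it had 98.0, 98.8 and 113 TPM in caput, against 23.02, 21.2, 22.6 and 45.8 in cauda. Every caput library was above every cauda library, and the log2 difference was 1.51 (SE 0.24, adjusted p = 0.00013) in cKO and 1.91 (SE 0.24, adjusted p = 1.18e-05) in control libraries. Mvk, the kinase one step earlier, was higher in caput in control libraries (log2 difference 0.52, SE 0.20). Fdps went the other way: it had 295, 378 and 320.1 TPM in cKO caput against 604, 617, 571 and 565 in cKO cauda, and 368, 298 and 405 TPM in control caput against 508, 526, 538 and 541 in control cauda. Its groups did not overlap in either genotype, with log2 differences of -0.84 (SE 0.11) in cKO and -0.57 (SE 0.11) in control libraries. Acat2 and Idi1, the isopentenyl diphosphate isomerase, were also lower in caput in control libraries, by -0.54 (SE 0.15) and -0.70 (SE 0.18). In cKO libraries Acat2 and Mvd passed as lower in caput. Mvd had 44.7 to 62.3 TPM in cKO caput against 77.2 to 88.9 in cKO cauda, and passed whichever of these libraries was left out. It did not pass in control libraries. Hmgcs1, HMG-CoA synthase, and Ggps1 passed the threshold in neither genotype.

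Of the 3 genes between farnesyl diphosphate and lanosterol, Lss and Fdft1 were higher in caput and Sqle passed in neither genotype. Lss, lanosterol synthase, had 11.97, 18.96 and 20.1 TPM in cKO caput, against 11.5, 8.50, 8.64 and 10.3 in cKO cauda. In control libraries it had 22.9, 21.3 and 22.97 TPM in caput, against 8.6, 8.45, 9.25 and 10.8 in cauda. No caput library of either genotype was as low as a cauda library of that genotype; the log2 difference was 0.72 (SE 0.18) in cKO and 1.19 (SE 0.18) in control libraries. Fdft1 was higher in caput in both genotypes, by 0.37 (SE 0.11) in cKO and 0.54 (SE 0.11) in control libraries. Its cKO value did not outlast median-ratio scaling, where it was -0.05. Fdft1 was not alone in this. That scaling left fewer members higher in cKO caput, as given above, so other cKO values of this kind depend on the scale too. Sqle, squalene epoxidase, had 0.35 (SE 0.26) in cKO and -0.37 (SE 0.26) in control libraries.

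Of the 8 genes from lanosterol to cholesterol, 2 were higher and 3 lower in caput in each genotype. Cyp51, which removes a methyl group from lanosterol, had 15.2, 14.3 and 18.0 TPM in cKO caput against 22.02, 21.2, 23.6 and 21.5 in cKO cauda. In control libraries it had 15.8, 13.03 and 10.1 TPM in caput against 26.7, 24.8, 30.5 and 34.7 in cauda. All caput libraries were below all cauda libraries (log2 difference -0.46, SE 0.17, in cKO and -1.12, SE 0.17, in control libraries). Msmo1, the next methyl oxidase, and Sc5d, a desaturase near the end of the route, were lower in control caput too, by -0.88 (SE 0.18) and -1.17 (SE 0.39). The Sc5d value leaned on Stra8 control caput replicate 2, the library with the fewest genes, where it had 0.79 TPM against 6.51 and 7.08 in the other control caput libraries; without that library the difference no longer passed and was -0.46. Ebp, a sterol isomerase, was on the opposite side, with 87.4, 82.7 and 75.8 TPM in cKO caput against 41.2, 44.9, 43.0 and 36.7 in cKO cauda, and 85.7, 72.4 and 77.2 TPM in control caput against 38.7, 43.0, 41.8 and 43.8 in control cauda. Its groups were wide apart (log2 difference 0.97, SE 0.12, in cKO and 0.89, SE 0.12, in control libraries). Nsdhl, which strips a carboxyl group at the same carbon that Msmo1 oxidizes, was higher in caput in both genotypes (0.60, SE 0.17, in cKO and 0.45, SE 0.17, in control libraries). Dhcr7, the last enzyme of the route, and Tm7sf2 were lower in caput in cKO libraries, by -0.93 (SE 0.14) and -0.46 (SE 0.13), and did not pass in control libraries (-0.17 and -0.01). Hsd17b7, a sterol ketone reductase, passed in neither genotype (0.04, SE 0.23, in cKO and -0.39, SE 0.23, in control libraries).

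Of the regulators, Srebf1 was higher in caput in control libraries (142, 214 and 264 TPM in caput against 114, 84.1, 109 and 125 in cauda; log2 difference 0.90, SE 0.27, adjusted p = 0.0138). In cKO libraries the groups overlapped (137, 198 and 221 TPM in caput against 143, 92.7, 97.0 and 198 in cauda). Srebf2 did not pass in either genotype. Insig1, which holds SREBP in the endoplasmic reticulum and is itself an SREBP target, was higher in caput in cKO libraries (39.0, 37.9 and 53.5 TPM in caput against 24.1, 21, 21.1 and 20.1 in cauda; 0.96, SE 0.15). Its difference in control libraries was 0.02 (SE 0.15).

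Of the 6 fatty acid genes, 2 were higher and 0 lower in cKO caput, and 3 were higher and 2 lower in control caput. Elovl6, which lengthens palmitate, had 19.4, 19.98 and 25.2 TPM in cKO caput against 7.12, 7.67, 7.69 and 9.34 in cKO cauda, and 22.4, 16.9 and 18.1 TPM in control caput against 9.20, 6.96, 11.3 and 10.4 in control cauda. Caput and cauda libraries did not overlap (log2 difference 1.33, SE 0.18, in cKO and 0.95, SE 0.18, in control libraries). Acly was also higher in caput in both genotypes (1.12, SE 0.15, in cKO and 0.46, SE 0.15, in control libraries), and Fasn in control libraries (0.62, SE 0.24). Acaca, acetyl-CoA carboxylase, which feeds Fasn, and Scd1, which puts a double bond into stearate, were lower in control caput, by -0.58 (SE 0.18) and -0.52 (SE 0.16).

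Of the transport genes, Stard4, a soluble sterol carrier, was close to 0 in caput: 0.45, 0.43 and 0.79 TPM in cKO and 0, 1.17 and 0.37 in control libraries. In cauda it had 3.26, 2.27, 1.66 and 2.74 TPM in cKO and 2.86, 2.40, 2.39 and 2.90 in control libraries. Its log2 difference was -1.15 (SE 0.24) in cKO and -1.34 (SE 0.24) in control libraries, and no caput library reached a cauda library. Abcg1, an exporter to lipoprotein particles, showed the reverse, with 7.24, 7.59 and 11 TPM in cKO caput against 2.17, 2.27, 2.11 and 3.62 in cKO cauda, and 6.04, 6.75 and 10.5 TPM in control caput against 1.82, 2.19, 2.19 and 3.23 in control cauda. That amounted to 1.44 (SE 0.23) in cKO and 1.37 (SE 0.23) in control libraries. Abca1, its relative that loads apolipoprotein A-I, passed in cKO libraries (0.92, SE 0.30, adjusted p = 0.0238) and had 0.05 (SE 0.30) in control libraries, and the difference between the genotypes did not pass (0.87, SE 0.43, adjusted p = 0.216). Other cell types shifted between segments too. All 5 smooth muscle genes were lower in control caput (summed level 626 to 1479 TPM against 4908 to 5511 in control cauda). Of 6 tested macrophage genes, 4 were higher in control caput (summed level of the 6, 522 to 693 TPM against 228 to 509.8). Their part in the segment differences was not tested.

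**Figure D2:**
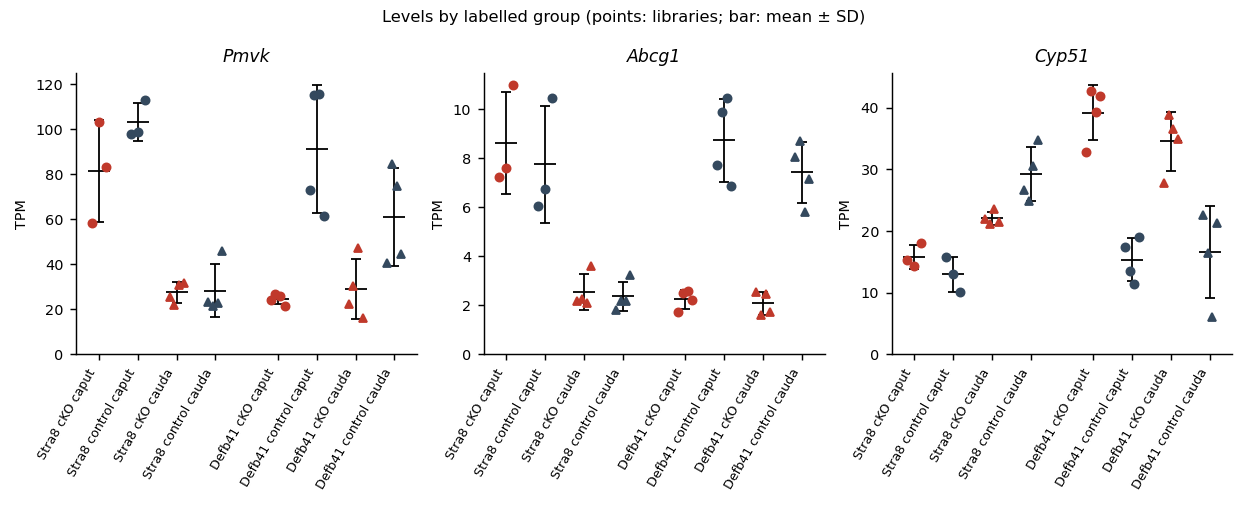
TPM of Pmvk, Abcg1 and Cyp51 in each of the 30 libraries (points; circles are labelled caput, triangles labelled cauda, red cKO and dark control), with the mean and SD of each labelled group. In the Stra8 line the levels follow the segment; in the Defb41 line the libraries labelled cKO lie at 15.9 to 47.2 TPM for Pmvk and 1.62 to 2.56 for Abcg1 whatever their segment label.

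Loss of Dgcr8 in germ cells, the question of the Stra8 line, moved no member past the threshold in caput, in cauda or in the effect averaged over both. For caput, limma called 0% of the 12993 genes, although 2655 genes and 3 members had an unadjusted p under 0.05; for cauda it called 0%, with 1220 genes and 5 members at an unadjusted p under 0.05; for the average it called 0.854% of genes (111 genes, with 0.847% higher in cKO and 0.0077% lower) and 0 members, with 721 genes and 1 member at an unadjusted p under 0.05. The median log2 change of the members was 0.06 in caput, -0.09 in cauda and 0.01 in the average, beside 0.22, -0.14 and 0.04 over all genes. The member nearest to the threshold was Dhcr7 (chr7:143823167-143848410, GRCm38.p6) in caput, with 12.5, 14.7 and 12.6 TPM in cKO caput against 23.04, 20.5 and 22.9 in control caput. The groups did not overlap, and the log2 change was -0.70 (SE 0.15, adjusted p = 0.0752). In cauda, Dhcr7 had 29.1, 26.01, 22.3 and 27.4 TPM in cKO against 27.1, 22.8, 26.9 and 23.3 in control libraries, and the groups overlapped. Insig1 had 39.0, 37.9 and 53.5 TPM in cKO caput against 33.5, 24.5 and 26.7 in control caput (0.60, SE 0.16, adjusted p = 0.106), again without overlap. In cauda its 4 cKO libraries (20.1 to 24.1 TPM) were below its 4 control libraries (25.9 to 28.5; -0.34, SE 0.14, adjusted p = 0.516). Hmgcs1 had 9.69, 6.26 and 12.6 TPM in cKO caput against 5.53, 3.94 and 6.81 in control caput, which overlapped (0.69, SE 0.31). Its cauda values, 7.71, 3.78, 5.11 and 5.32 TPM in cKO against 9.18, 5.18, 7.46 and 12.4 in control libraries, overlapped as well (-0.54, SE 0.27). Sc5d, with 0.75 (SE 0.42), had the largest change of all members in caput and rested on the control library in which it had 0.79 TPM. In 4 members the caput groups did not overlap (19.4% of all genes), and in 7 the cauda groups did not (7.5% of all genes): Cyp51, Idi1, Insig1 and Msmo1 were lower, and Fdps, Mvd and Tm7sf2 higher, in every cKO cauda library than in any control one. Idi1, for one, had 12.8, 11.7, 10.3 and 10.1 TPM in cKO cauda against 15.9, 13.1, 15.8 and 17.5 in control cauda (-0.44, SE 0.17, adjusted p = 0.49).

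Same-numbered cKO and control libraries of a segment deviated together, and a replicate block within segments, chosen after seeing the data, changed these calls for caput. With it, 3 members passed among 14.9% of all genes: Dhcr7 lower (adjusted p = 0.0132), and Hmgcs1 and Insig1 higher (adjusted p = 0.0334 and 0.0241). With the block over all libraries that had been planned, 2 passed among 8.69% of all genes, Dhcr7 and Insig1 (adjusted p = 0.0193 and 0.0317). With the block within segments, 7 members also passed for the difference between the caput and cauda changes, among them Hmgcs1 (1.23 on the log2 scale, adjusted p = 0.00978), Insig1 (0.94, adjusted p = 0.0105) and Dhcr7 (-0.76, adjusted p = 0.0182), where the fit without it called 0 members and 0% of genes (20.8% with it), with 3283 genes and 9 members at an unadjusted p under 0.05. With no block, Dhcr7 (-0.67, adjusted p = 0.0448) and Insig1 (0.73, adjusted p = 0.0393) also passed in caput when control caput replicate 1 was left out. That fit called 4.12% of all genes (549 genes), where leaving out any other caput library called 0%. For the difference between the caput and cauda changes, 3 members passed without control caput replicate 1 (7.44% of all genes). Without cKO caput replicate 2 it was 3 as well (5.34% of all genes).

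The base composition of the transcripts moved with these changes. Over the 31 members, Pearson's r between the log2 change and the GC content of the longest coding transcript was -0.53 in caput and 0.85 in cauda; over 11959 genes it was -0.38 and 0.39. These are correlations across genes of the same libraries, which are not independent replicates. GC-poor members such as Idi1 (41.9% GC), Hmgcs1 (43.1%), Msmo1 (45.2%) and Cyp51 (46.2%) had negative values in cauda, and the GC-rich Mvk (59.6%), Mvd (59.3%), Srebf1 (58.4%) and Tm7sf2 (56.5%) positive ones. When a trend on GC was taken out of each library and the block within segments kept, both chosen after seeing the data, Hmgcs1 and Insig1 no longer passed in caput (0.21 and 0.27; adjusted p = 0.413 and 0.181), and 4 members were lower among 2.58% of all genes: Dhcr7 (-0.91, adjusted p = 0.0311), Lss (-0.64, adjusted p = 0.0485), Nsdhl (-0.56, adjusted p = 0.047) and Fdft1 (-0.39, adjusted p = 0.0478). In the same fit the difference between the caput and cauda changes passed for Dhcr7 alone (-1.08, adjusted p = 0.0403; 0.41% of genes), and Acly, Hmgcs1, Insig1, Mvd, Scd2 and Tm7sf2 no longer passed (adjusted p = 0.0681 to 0.891). Taking out the GC trend put the members' median of this difference at -0.35, against 0.15 on the deposited scale. Dhcr7 was the member that passed with the block in each of these fits, with and without the GC term. With the GC term and no block, the number of members passing in caput stayed as it was on the deposited scale. In that limma fit 1771 genes and 7 members had an unadjusted p under 0.05 in caput.

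**Figure D3:**
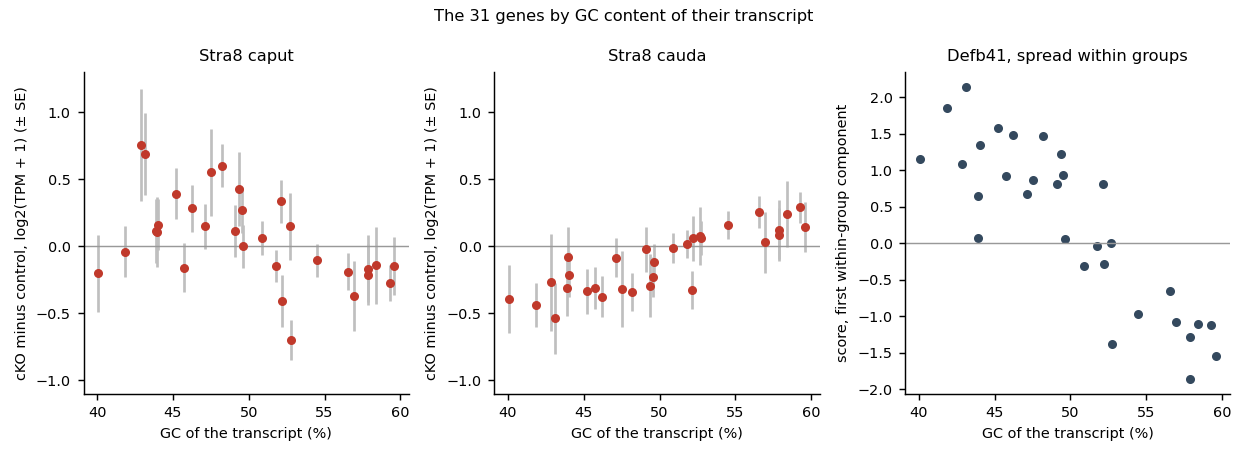
Left and middle: cKO minus control change of each of the 31 genes on the log2(TPM + 1) scale (± SE) against the GC content of its transcript, in Stra8 caput and cauda; right: each gene's score on the main component of the spread within Defb41 groups against the same GC content. The cauda changes rise with GC (r 0.85), the caput changes fall with it less tightly (r -0.53), and the Defb41 scores fall with it (r -0.87).

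Within the Defb41 line, libraries of the same genotype label were compared between segment labels. Of the control-labelled libraries, 3 members were higher in those labelled caput than in those labelled cauda and 0 were lower, where 24.3% of all 13010 genes passed (4.47% higher and 19.8% lower in labelled caput). Leaving out each of the 8 libraries in turn gave 16.9% (2244 genes, without control-labelled caput replicate 1) to 37.4% (4963 genes, without control-labelled cauda replicate 3), and 3 to 6 members. Scd1, stearoyl-CoA desaturase (chr19:44394450-44407709, GRCm38.p6), had 56.5, 50.3, 51.6 and 64.0 TPM in control-labelled caput against 14.6, 11.7, 7.78 and 13.4 in control-labelled cauda. The log2 difference of 2.16 (SE 0.18, adjusted p = 2.6e-07) was the largest of any member. Tm7sf2 (chr19:6062821-6067850) had 125, 157, 178 and 91.9 TPM in control-labelled caput against 44.6, 65.2, 56.5 and 41.7 in control-labelled cauda (1.37, SE 0.21, adjusted p = 0.000127). Nsdhl had 138, 158, 164 and 158 TPM in control-labelled caput against 129, 93.4, 45.9 and 97.8 in control-labelled cauda (0.84, SE 0.23, adjusted p = 0.013). None of the 3 overlapped between the labels, as for 4 members in all and 19.6% of genes; Stard4, the remaining one, was lower in labelled caput without passing (-0.42, SE 0.21). The 4 control-labelled cauda libraries were also below all other 26 libraries for Scd1 (at most 14.6 TPM, against at least 35.9 elsewhere) and Tm7sf2 (at most 65.2, against at least 91.9). That held for 2 members and for 0.187% of 13873 genes; 0 members and 2.94% of genes had all 4 above the other 26. Scd2, the close relative of Scd1, did not pass on this scale: it had 213, 203, 228 and 199 TPM in control-labelled caput against 173, 155, 71.1 and 220.5 in control-labelled cauda (0.55, SE 0.24, adjusted p = 0.107).

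**Figure D4:**
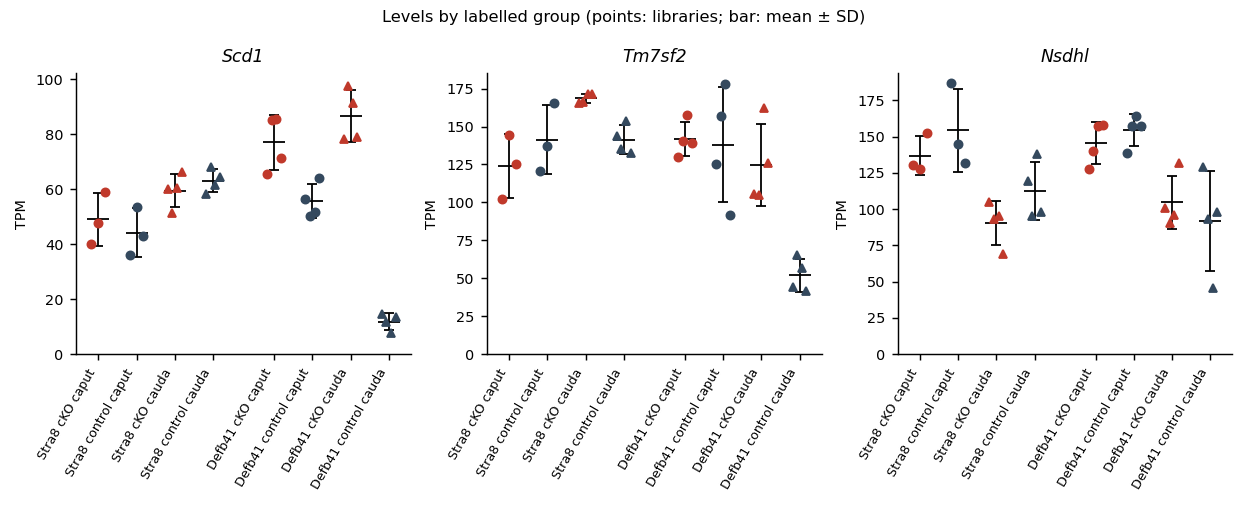
TPM of Scd1, Tm7sf2 and Nsdhl in each of the 30 libraries (points; circles are labelled caput, triangles labelled cauda, red cKO and dark control), with the mean and SD of each labelled group. The 4 libraries labelled Defb41 control cauda lie at 7.78 to 14.6 TPM for Scd1 and 41.7 to 65.2 for Tm7sf2, below all other libraries.

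How many members passed in this comparison depended on the scale. All genes had a median log2 difference of -0.33 here and the members 0.13. With median-ratio scaling the median of all genes was 0.00 and that of the members 0.51, and 10 members were higher in labelled caput and 0 lower (16.2% of all genes passed). The further 7 were Elovl6 (1.21), Lss (1.09), Scd2 (0.97), Srebf1 (0.90), Insig1 (0.80), Acat2 (0.67) and Abcg1 (0.57). With the trend on GC taken out, 14 were higher and 0 lower (21.7% of all genes), Dhcr7, Idi1, Pmvk and Sc5d in addition. With the pairing by replicate number 9 passed, 6 higher and 3 lower (33.3% of all genes), and with the GC term as well 14 higher and 0 lower (26.8%). Scd1, Tm7sf2 and Nsdhl passed in each of these fits; with the 2 groups fitted alone Nsdhl did not (adjusted p = 0.0766). The 3 also passed whichever of the 8 libraries was left out, with 5 members in all without control-labelled caput replicate 4 and 6 without control-labelled cauda replicate 4. Cell type genes moved alongside. The summed level of 3 basal cell genes was 165 to 182 TPM in control-labelled caput against 572 to 734 in control-labelled cauda. That of 6 macrophage genes was 471 to 572 against 937 to 1815, and that of 11 caput genes 80145 to 111760 against 17422 to 43106. Their part in the difference was not tested. In Stra8 controls, where the labels matched, Scd1 was lower in caput than in cauda.

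**Figure D5:**
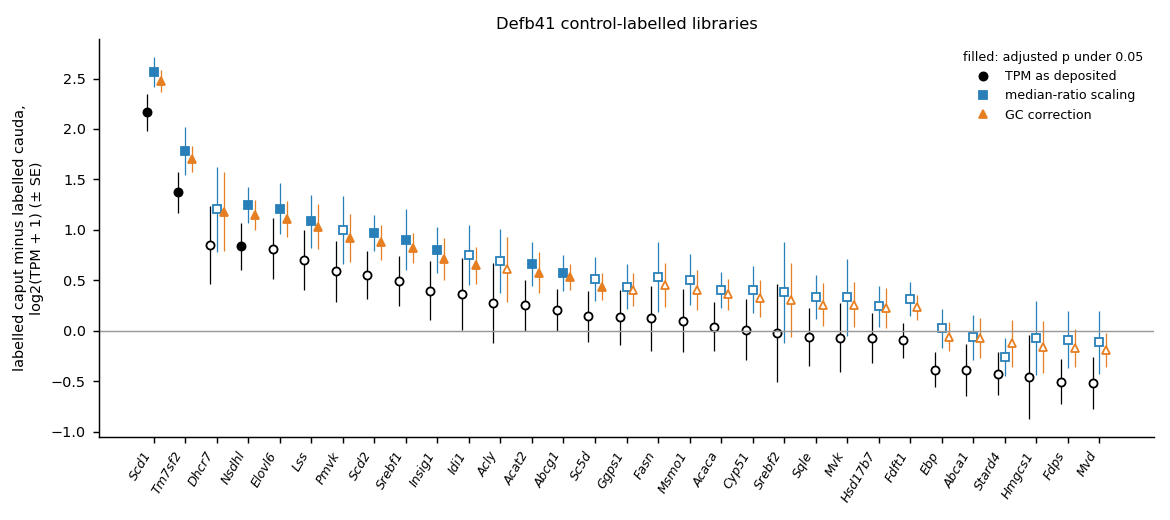
Labelled caput minus labelled cauda difference of the 31 genes in the 8 Defb41 control-labelled libraries, on the log2(TPM + 1) scale (± SE), for TPM as deposited (circles), after median-ratio scaling (squares) and after taking out a trend on transcript GC (triangles); filled symbols have an adjusted p under 0.05. Scd1, Tm7sf2 and Nsdhl are filled on all 3 scales, and both other scales lie above the deposited one.

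Between the cKO-labelled caput and cauda libraries, both of which carried distal genes, 0 of 31 members passed, where 0.0384% of all genes did (5 genes, 0.0307% higher and 0.00769% lower; at an unadjusted p under 0.05, 406 genes and 1 member). The differences ran from 0.62 (SE 0.40) for Acly to -0.17 for Srebf1 (SE 0.25) and Scd1 (SE 0.18).

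The comparisons of cKO-labelled with control-labelled libraries set tissue with distal genes against tissue with caput genes. For libraries labelled caput, 8 members were higher and 5 lower in cKO-labelled ones (38.2% of all genes passed, 23.3% higher and 14.9% lower). With median-ratio scaling these were 7 higher and 8 lower (39.5% of all genes) and with the GC trend taken out 9 and 9 (40.6%); the members' median was 0.25 on the deposited scale, -0.01 and 0.09. For libraries labelled cauda, 11 were higher and 4 lower (33.1%, 9.45% higher and 23.7% lower), with 14 and 3 under median-ratio scaling (30.9%) and 13 and 3 with the GC trend taken out (34.9%). In the average of both, 14 were higher and 7 lower (47.3%, 21.6% higher and 25.7% lower). All 13 members called for labelled caput were also among the 20 that differed between segments in Stra8 controls, 65% of those 20, and each of the 13 lay on the cauda side. Over the 12589 genes tested in both lines, 4020 of the 4886 called for labelled caput differed between the Stra8 segments (82.3%), and all 4020 lay on the cauda side. Of the 15 called for labelled cauda, 11 were among the 20 (73.3% of the 15 and 55% of the 20), and all 11 lay on the cauda side; over all genes it was 2788 of 4222 (66%), of which 2715 (97.4%) lay on the cauda side. These comparisons share no library. Of the 13, Elovl6 passed in 1 of the 8 fits that left out a library, without control-labelled caput replicate 2. Fdps was lost without control-labelled caput replicate 1 or 4 or cKO-labelled caput replicate 3. Of the 15, Dhcr7 and Msmo1 each passed in 3 of the 8 fits that left out a library labelled cauda. Abca1 passed in 5 and Scd2 in 7, and these fits called 12 to 14 members (27.3% to 35.8% of all genes). Across the 31 genes the labelled caput change followed the cauda minus caput difference of Stra8 controls with r 0.96 and the labelled cauda change with r 0.74, beside 0.95 and 0.81 over the 12589 genes; these are correlations across genes of the same tissue. The values below describe the labels as deposited, with genotype and segment not told apart.

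In the mevalonate part, Idi1 had 21.4, 27.2, 22.4 and 25.5 TPM in cKO-labelled caput against 10.5, 5.94, 7.57 and 12.4 in control-labelled caput, and 15.9, 18.9, 17.4 and 18.4 TPM in cKO-labelled cauda against 10.9, 6.02, 1.93 and 12.7 in control-labelled cauda. All cKO-labelled libraries were above all control-labelled ones, with an averaged log2 change of 1.32 (SE 0.25, adjusted p = 0.000299). Acat2, Ggps1 and Fdps were higher in the average too, by 0.89 (SE 0.18), 0.51 (SE 0.19) and 0.47 (SE 0.16). Ggps1 no longer passed with the GC trend taken out (0.07, adjusted p = 0.66), and Fdps no longer with median-ratio scaling (0.45, adjusted p = 0.0684). Pmvk was lower, with 24.2, 26.6, 25.9 and 21.3 TPM in cKO-labelled caput against 72.8, 115, 116 and 61.3 in control-labelled caput, and 22.4, 30.3, 47.2 and 15.9 TPM in cKO-labelled cauda against 40.4, 84.4, 74.6 and 44.7 in control-labelled cauda (-1.45, SE 0.22). The groups overlapped for labelled cauda only.

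In the sterol part, Cyp51 had 32.8, 42.8, 39.3 and 42.0 TPM in cKO-labelled caput against 17.4, 13.5, 11.4 and 19.1 in control-labelled caput. In labelled cauda it had 27.8, 38.8, 36.6 and 35.0 TPM in cKO against 22.6, 16.4, 6.02 and 21.4 in control libraries. No libraries overlapped, and the averaged log2 change was 1.23 (SE 0.21, adjusted p = 0.000105). Msmo1 and Sc5d were separated in the same way (1.01, SE 0.22, and 0.95, SE 0.18), and Dhcr7, Tm7sf2 and Hsd17b7 were higher with overlap between libraries (0.76, SE 0.27; 0.66, SE 0.15; 0.53, SE 0.18). The averaged change of Tm7sf2 came from labelled cauda (1.25, SE 0.21). In labelled caput its mean was 142 TPM in cKO-labelled and 138 in control-labelled libraries. With the GC trend taken out Hsd17b7 no longer passed (0.26, adjusted p = 0.142), and with median-ratio scaling Dhcr7 no longer did (0.73, adjusted p = 0.0507). Ebp was lower, with 36.0, 39.2, 43.6 and 36.0 TPM in cKO-labelled caput against 54.3, 72.5, 76.4 and 54.7 in control-labelled caput, and 42.3, 35.8, 51.4 and 38.3 TPM in cKO-labelled cauda against 92.1, 92.5, 86.6 and 65.9 in control-labelled cauda. These too did not overlap (-0.85, SE 0.12). Lss was lower by -0.57 (SE 0.21).

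Of the fatty acid genes, Scd1 had 65.7, 85.4, 85.5 and 71.6 TPM in cKO-labelled caput, next to the control-labelled caput values given above, and 78.3, 97.8, 91.3 and 79.2 TPM in cKO-labelled cauda, next to those of control-labelled cauda. Its change was 0.46 (SE 0.18, adjusted p = 0.0561) for labelled caput and 2.79 (SE 0.18, adjusted p = 1.95e-09) for labelled cauda. Acaca and Scd2 were higher in the average (0.80, SE 0.17, and 0.49, SE 0.17), and Elovl6 was lower (-0.56, SE 0.21), though not with the filter on low values left off (adjusted p = 0.0555). Among regulators, Srebf1 was lower (-0.61, SE 0.18), and Srebf2 and Insig1 did not pass (-0.13 and 0.16). With the GC trend taken out Srebf1 no longer passed (-0.25, adjusted p = 0.063) and Srebf2 had 0.21 (adjusted p = 0.542). Among transport genes, Stard4 had 3.74, 5.16, 4.18 and 2.89 TPM in cKO-labelled caput against 0.45, 0.39, 0.48 and 0.59 in control-labelled caput, and 2.43, 3.19, 4.06 and 2.08 TPM in cKO-labelled cauda against 1.53, 0.82, 1.02 and 0.65 in control-labelled cauda (1.35, SE 0.15, with no overlap). Abcg1 was the reverse, with 1.71, 2.49, 2.56 and 2.20 TPM in cKO-labelled caput against 7.73, 9.88, 10.4 and 6.87 in control-labelled caput, and 2.52, 1.62, 2.45 and 1.74 TPM in cKO-labelled cauda against 8.05, 8.69, 5.81 and 7.15 in control-labelled cauda (-1.51, SE 0.15). Abca1 was lower by -0.60 (SE 0.18). Leaving out each library in turn gave 18 to 21 members in the average (42.4% to 51.1% of all genes). Elovl6 and Lss each passed in 7 of these 16 fits, Ggps1 in 9, Dhcr7 in 10, and Fdps and Scd2 in 15 each. In 9 members all 8 cKO-labelled libraries lay outside the range of all 8 control-labelled ones, as for 14.6% of genes.

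The averaged change differed between the lines for 14 members, 11 with a higher value in the Defb41 line and 3 with a lower one (33.4% of all 13873 genes passed, 13% higher and 20.5% lower), led by Abcg1 (-1.62, SE 0.21), Scd1 (1.60, SE 0.17) and Idi1 (1.56, SE 0.31). Segment and genotype are not told apart in it either. Hsd17b7 passed in 15 and Ggps1 in 29 of the 30 fits that left out 1 library. Neither passed with the GC trend taken out (adjusted p = 0.0765 and 0.0945), and Hsd17b7 did not with a pseudocount of 0.1 (adjusted p = 0.0526).

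Genes of the same pathway outside the list of 31 were counted from 4 lists of textbook members, 43 of 51 tested in the Stra8 line and 45 in the Defb41 line. In the Stra8 genotype comparisons 0 passed. Between segments of Stra8 controls, 8 of 43 were higher and 12 lower in caput, where 45.5% of all genes passed (20.5% higher and 25% lower). Higher in caput were the cholesterol carrier Npc2, the scavenger receptor Scarb1, Apoe and the LXR gene Nr1h3, with 4 of 11 storage, transport and LXR genes higher and 1 lower. Of 19 further lipid synthesis genes 2 were higher, the desaturases Fads1 and Fads2, and 7 lower, among them Acacb, Thrsp, Scd3 and Elovl5. In Stra8 cKO libraries 9 of 43 were higher and 11 lower in caput, where 41.1% of all genes passed (30.6% higher and 10.5% lower). Between the control-labelled Defb41 groups 0 were higher and 10 of 45 lower in labelled caput, among them Apoe, Nr1h2, Nr1h3, Lipa and Lbr; of all genes 19.8% were lower there.

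Pairs of members were also compared within groups. After removal of group means, the median Pearson r over the 465 pairs of members was 0.24 in the 14 Stra8 libraries, beside 0.25 over all pairs of genes, and 0.30 in the 16 Defb41 libraries, beside 0.12. In the Stra8 line 7.1% of member pairs had r over 0.7 (8.95% of all pairs) and 0.645% had r under -0.7 (0.742% of all pairs). In the Defb41 line 26.2% of member pairs had r over 0.7 (9.72% of all pairs) and 4.95% had r under -0.7 (2.51% of all pairs). In the Defb41 line Insig1 varied with Msmo1 (r 0.99) and Cyp51 (r 0.95), and Fasn with Tm7sf2 and Srebf1 (r 0.95 each), while Srebf1 ran against Sc5d (r -0.88) and Hmgcs1 (r -0.84). Srebf1, Fasn and Tm7sf2 are GC-rich (58.4%, 57.9% and 56.5%), and Sc5d, Hmgcs1, Msmo1 and Cyp51 GC-poor (42.9%, 43.1%, 45.2% and 46.2%). The main component of the spread within Defb41 groups held 33.4% of its variance, and its gene scores followed transcript GC with r -0.87 over the 31 members and -0.65 over 12014 genes; in the Stra8 line the values were -0.06 and -0.17. Hmgcs1 (43.1% GC) had 10.5, 5.46, 5.38 and 16.5 TPM in control-labelled caput and 24.96, 6.80, 5.15 and 22.5 in control-labelled cauda, replicates 1 and 4 high in both. Srebf2 (57.9% GC) had 67.1, 168, 149 and 29.1 TPM in control-labelled caput and 64.4, 155, 121 and 43.8 in control-labelled cauda, replicates 2 and 3 high in both. All r here are over genes or over libraries that share these deviations, and the part of base composition in them was not tested.

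Promoters were read for 24 of the 31 members from RefSeq (build GRCm38.p6), and the 250 bases before the annotated start were searched on both strands. The sterol element TCACNCCAC was found in 1 of 24 members, Hmgcs1, and in 1.22% of 27025 genes with a promoter. The NF-Y box CCAAT, whose factor works with SREBP, was found in 19 of 24 members (79.2%) and in 37.5% of all genes, the Sp1 box GGGCGG in 19 of 24 (79.2%) and in 35.4%, and the E-box CACGTG in 5 of 24 (20.8%) and in 6.86%. Each motif was counted on its own, so matches of different motifs may overlap, and sterol elements of other spelling were not searched. The 27025 genes were not limited to those expressed in these libraries, as the members were, so the shares are of unlike sets. Fdps, Fdft1, Sqle, Scd1, Scd2, Stard4 and Abcg1 were not among the 24. A set of 4 promoters is shown, picked after the values were seen: Hmgcs1, for its sterol element, Insig1, the feedback regulator named above in Stra8 caput, and Tm7sf2 and Nsdhl, which passed between the control-labelled Defb41 groups. Each is given on the strand of the gene, 5′ to 3′, up to the base before the start, with the sterol element, NF-Y boxes (either strand, so ATTGG also) and E-boxes in capitals.
Hmgcs1: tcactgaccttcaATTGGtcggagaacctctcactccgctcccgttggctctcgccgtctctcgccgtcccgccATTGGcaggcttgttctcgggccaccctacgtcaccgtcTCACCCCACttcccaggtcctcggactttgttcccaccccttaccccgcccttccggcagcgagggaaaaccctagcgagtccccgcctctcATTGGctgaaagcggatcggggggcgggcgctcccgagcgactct
Insig1: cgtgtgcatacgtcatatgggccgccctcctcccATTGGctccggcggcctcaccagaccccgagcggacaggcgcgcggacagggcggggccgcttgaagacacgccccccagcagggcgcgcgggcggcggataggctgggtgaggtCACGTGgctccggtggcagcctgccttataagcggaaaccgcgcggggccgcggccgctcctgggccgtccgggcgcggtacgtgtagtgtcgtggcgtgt
Tm7sf2: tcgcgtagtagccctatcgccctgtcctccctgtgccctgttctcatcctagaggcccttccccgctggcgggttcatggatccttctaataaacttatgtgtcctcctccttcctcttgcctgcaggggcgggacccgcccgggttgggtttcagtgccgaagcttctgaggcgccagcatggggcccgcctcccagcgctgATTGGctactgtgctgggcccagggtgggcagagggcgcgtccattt
Nsdhl: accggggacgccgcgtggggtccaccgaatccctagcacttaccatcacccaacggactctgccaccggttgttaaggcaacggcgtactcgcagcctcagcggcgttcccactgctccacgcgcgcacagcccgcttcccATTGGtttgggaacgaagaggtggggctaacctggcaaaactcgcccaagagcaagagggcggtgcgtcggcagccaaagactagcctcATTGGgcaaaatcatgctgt
Hmgcs1 holds its sterol element at position -137 from the start (chr13:119690101-119690350, plus strand) with 3 NF-Y boxes. Insig1 has an NF-Y box and an E-box in this window (chr5:28071162-28071411, plus strand), Tm7sf2 has 1 NF-Y box (chr19:6067851-6068100, minus strand) and Nsdhl has 2 (chrX:72918271-72918520, plus strand). A match of letters is a description and not a binding site.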

How the data were processed

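PolyA RNA of 30 epididymis libraries was sequenced with a stranded mRNA kit and given on genome build mm10, per the labels' protocols. The authors deposited TPM per gene, made with RSEM per the submitters' processing notes; its version, its annotation and any use of strand are not stated. TPM sums to 999999 or 1000000 in every library, so the depth is unknown and no counting interval can be given.

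Here log2(TPM + 1) was fitted with limma 3.58.1 (R 4.3.3, trend and robust options), one mean per labelled group and one fit per line, on genes with at least 1 TPM in 3 libraries (Stra8 line and both lines together) or 4 libraries (Defb41 line). This scale understates changes of low genes. P-values were adjusted by Benjamini-Hochberg over all genes tested, with a threshold of 0.05. Adjusted p-values in the report are from this limma fit unless a setting is named. The fit was tested on simulated data for the Stra8 caput comparison alone. The simulated libraries were independent, with a capped spread, no deviations shared by replicate number and no GC trend. The test does not cover data with such deviations or trends.

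The members and lists were chosen with earlier results of these data known. Named with values in every library were members past the threshold in genotype comparisons and the 3 with the largest change in each comparison, as far as the text allows. GC content was that of the longest coding transcript in GENCODE M21, which 92.0% of the Stra8 and 92.3% of the Defb41 genes tested had.

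Replicate numbers are shared between groups in the labels. Deviations of same-numbered libraries correlated over 0.1 in every pair for Stra8 caput (0.204 to 0.433), Stra8 cauda (0.303 to 0.464), Defb41 control-labelled caput and cauda (0.208 to 0.414) and the cKO-labelled ones (0.104 to 0.332), so these were treated as paired in an alternative fit; the other comparisons were not. Alternatives were a pseudocount of 0.1, no filter on low values, median-ratio scaling, limma without its trend and robust options, a replicate block, only the 2 groups compared, each library left out, and, chosen after seeing the data, a trend on GC taken out and the block within the pairs compared.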

Additional observations from a re-analysis of the deposited data

Results flagged for a closer look

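In groups of 4 libraries, 5 of 186 gene and group combinations held a library far from the other 3, where chance flags about 1 group in 20. They were Hmgcs1 in Defb41 cKO-labelled cauda replicate 1 (8.24 TPM), Pmvk in Stra8 control cauda replicate 4 (45.8 TPM), Msmo1 in Stra8 cKO cauda replicate 4 (29.7 TPM), Acly in Stra8 cKO cauda replicate 1 (147 TPM) and Abcg1 in Stra8 cKO cauda replicate 4 (3.62 TPM).

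The averaged change, cKO minus control, differed between the lines for 14 members in limma's test of the difference itself (Defb41 minus Stra8, log2). Higher in the Defb41 line were Scd1 (1.60), Idi1 (1.56), Stard4 (1.34), Cyp51 (1.28), Dhcr7 (1.08), Msmo1 (0.98), Acat2 (0.95), Ggps1 (0.81), Acaca (0.76), Hsd17b7 (0.63) and Tm7sf2 (0.63). Lower were Abcg1 (-1.62), Pmvk (-1.27) and Ebp (-0.87). Ggps1 and Hsd17b7 no longer passed with the GC trend taken out. Genotype and segment cannot be told apart in the Defb41 line, so neither can they in these differences.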

How the results depend on the processing

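Of the recomputed counts of members, 210 stayed within 1.5 times the count reported and 16 moved. In Stra8 caput, where 0 members passed, the replicate block gave 2, the block within segments 3, that block with the GC trend taken out 4, and leaving out each library in turn 0 to 2. For the difference between the Stra8 caput and cauda changes, also 0, the same fits gave 6, 7 and 1, and leaving out libraries 0 to 3. Between the Defb41 control-labelled segments, where 3 passed, median-ratio scaling gave 10, the replicate block 7, the block within the pairs compared 9, the GC trend taken out 14, both together 14, and leaving out libraries 3 to 6. The cause was not tested. The block moved no other count of members by more than 1.5 times. The GC correction and the block within pairs were chosen after seeing the data. Single genes were tallied for a part of the recomputed values only. In that part 1835 kept direction and side of the threshold, 156 no longer passed and 8 passed newly. There 1 reversed: Fdft1 between Stra8 cKO segments, at -0.046 with median-ratio scaling. Other refits passed newly or changed sign as well. With the GC trend taken out, Abca1 passed for the difference between lines (limma, adjusted p = 0.00752). In the Defb41 average Hmgcs1 went from 0.23 to -0.07 with that trend taken out. With TPM alone the depth is unknown, so no limit from counting can be given for the lowest members.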
